A study of Mus musculus with 2 samples.

Results

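The DNA replication machinery comprises the proteins that mark, open and copy the origins of the genome. The set held 42 genes, listed by name from the known subunits of the replication fork and its loading factors, and all 42 were identified on the arrays through their transcript identifiers, out of 21360 genes that could be named. Hematopoietic LSK cells, which are negative for lineage antigens and positive for Sca-1 and c-kit, were sorted from bone marrow after a density gradient, and their RNA was amplified and hybridized to 1-colour Agilent mouse arrays. The comparison asks how gene expression in these cells differed between nondiabetic C57BL/6J mice and C57BL/6J mice made diabetic with streptozotocin (STZ), a toxin that destroys pancreatic beta cells. Each group was 1 array made from 8.3 ng of RNA, and the labels give 3 mice for each. The labels call the mice female, while the study describes male mice. The methods of the study describe STZ injected into the tail vein and citrate buffer for controls, but do not tie its dose, the age of the mice or the duration of diabetes to these arrays.

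Before a cell divides, the origin recognition complex, Cdc6 and Cdt1 load the MCM helicase onto DNA, and kinases with Cdc45 and the GINS complex then turn the loaded helicase into an active one. Primase with polymerase alpha starts each new strand, polymerases delta and epsilon extend it while held on DNA by the PCNA clamp, and Fen1 and ligase I join the fragments of the lagging strand. In the marrow these genes are known to be high in dividing progenitors, while the most primitive stem cells in the LSK population divide rarely.

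With 1 array per group there is no replicate of a condition, so no difference was tested and the number of arrays limits the precision. Values are the intensities of the scanner software in arbitrary units, and a log2 ratio compares the diabetic with the nondiabetic array after each was scaled to its 75th percentile, which was an intensity of 168 on the nondiabetic and 182 on the diabetic array. Genes were counted by a limit of 2-fold, and where no 2-fold count or fold is given, higher and lower say only which array read more after scaling. The error the software itself assigns to a spot, carried over to the log2 ratio of a member probe, had a median of 0.21 and was at least 0.20, and it leaves out differences between mice, sorts and amplifications. A lower value can mean fewer cells that express a gene or less RNA per cell, and these cannot be told apart in pooled RNA.

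The surface markers of the gate were present on both arrays. Kit, which encodes c-kit, had an intensity of 4635 on the nondiabetic and 4735 on the diabetic array, a log2 ratio of -0.09. Ly6a, which encodes Sca-1, read 475 and 701, a log2 ratio of 0.44, and Cd34, a progenitor marker, read 3888 and 4902, a log2 ratio of 0.22. Of the 12 genes listed for the gate, 11 were well above background on both arrays and 1 on the diabetic array only. The probe of Itgam, which encodes the CD11b antigen of the myeloid lineage, was bright on both arrays at 34686 and 35189, and that of Cd3e, a T cell antigen, was above background at 238 and 198. Probes of some lineage antigens thus gave a signal in the sorted cells of both groups. Whether other transcripts add to that signal was not tested. The marker lists of the lineages are given after the replication genes.

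The replication genes were expressed in the LSK cells of both groups. By the probe that stands for each gene, its brightest, 41 of 42 members were well above background on both arrays, against 63.0% of all named genes. Only 2 members, Orc5 and Rfc3, were higher by 2-fold or more in diabetic LSK cells, where 11.0% of the 15192 genes with a ratio were. Another 4 members, Orc2, Mcm10, Gins4 and Pold2, were at least 2-fold lower, beside 10.1% of all genes. The counts in both directions are thus near or below those of the arrays as a whole. The log2 ratio was below 0 in 14 of 42 members and above 0 in 28, whereas 48.8% of all genes were below 0. The median of the members was 0.09, with quartiles of -0.35 and 0.42, and that of all genes 0.02, with quartiles of -0.41 and 0.47. The machinery as a set was therefore centred close to the rest of the arrays. The spread around that centre was slightly narrower than over all genes. With all measured probes split into 3 equal groups by intensity, 7 of the 48 member probes fell in the dimmest group, 20 in the middle and 21 in the brightest.

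**Figure D1:**
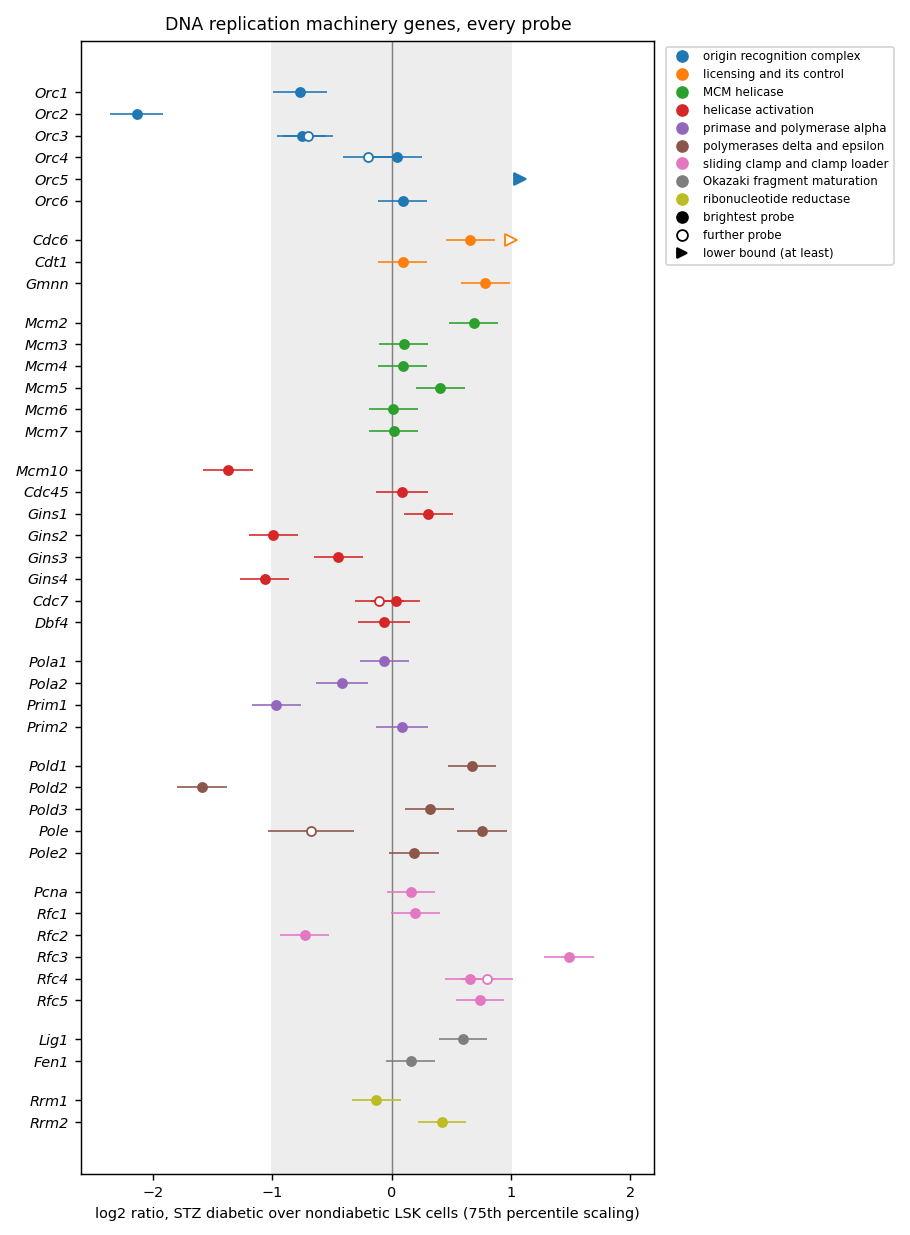
Log2 ratio of the STZ diabetic over the nondiabetic array for every probe of the 42 replication genes, by role. Filled points are the brightest probe of a gene, open points its further probe, triangles lower bounds, horizontal bars the software's error of the ratio, and the grey band spans 2-fold in either direction; Orc2 lies farthest below at -2.14 and Rfc3 farthest above at 1.48.

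By size, 23 members lay within 0.5 of 0 on the log2 scale (54.8%, against 54.6% of all genes). In 17 members the ratio was smaller than the software's own error, which included Mcm3, Mcm4, Mcm6, Mcm7, Pcna, Fen1 and Rrm1. Between 0.5 and 1 lay 8 members on the higher side, Cdc6, Gmnn, Mcm2, Pold1, Pole, Rfc4, Rfc5 and Lig1 (19.0%, against 12.9%). On the lower side in that range were 5, Orc1, Orc3, Gins2, Prim1 and Rfc2 (11.9%, against 11.4%). Counted by probe, 6 of 48 member probes passed 2-fold (12.5%), against 22.4% of all probes with a ratio or bound.

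Most members rest on a single probe. The 6 members past 2-fold had 1 probe each, as did 36 of the 42, and all 48 member probes were printed once. Of the 6 members with a pair of probes, 3 had log2 ratios of opposite sign (Orc4, Cdc7 and Pole), and over all named genes with several measured probes the share was 49.2%. The probes differed by over 2-fold in 1 of these 6 members, Pole, where 40.1% of all such genes had probes that far apart. Among the 691 genes with several probes whose brightest passed 2-fold, a next probe on the same side of 0 was found in 391 (56.6%), and one that passed 2-fold on that side in 181 (26.2%). A 2-fold difference on a single probe therefore often has no counterpart on another probe of the same gene on these arrays.

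The origin recognition complex, the 6-subunit platform that binds origins, was uneven. Orc2 (probe A_66_P115378), a core subunit, read 144 in nondiabetic and 35.5 in diabetic LSK cells, which is 4.40-fold lower after scaling (log2 ratio -2.14, software error 0.22). It was well above background on both arrays and had the lowest ratio of the set, which normexp, another background correction, brought to -1.36. Orc5 (probe A_51_P214825), an ATP-binding subunit, read 11.5 in nondiabetic cells, where it was not well above background, and 26.3 in diabetic cells. It was thus at least 2.10-fold higher in diabetic cells, a bound that rests on a dim probe and was 0.19 on the log2 scale under normexp. Orc1, the subunit with the ATPase that completes loading, went from 66.3 in nondiabetic to 42.2 in diabetic cells (-0.77). Both probes of Orc3 were lower in diabetic cells, from 194 to 125 (-0.75) and from 135 to 90.3 (-0.70). The pair of probes of Orc4 read 193 and 216 (0.05) and 94.7 and 89.6 (-0.20), so that their signs differ by an amount near the error. Orc6 was nearly level, with 332 and 385 (0.09). The median of the 6 subunits was -0.35, with 3 above and 3 below 0, beside 48.8% of all genes below 0. Within the complex, the ratio of Orc4 exceeded that of Orc2 by 2.18 on the log2 scale, and by 1.40 under normexp. A constant factor for each array cancels in this gap, but the pair was picked after the values were seen.

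Of the licensing factors that bring the helicase to origins and their inhibitor, none passed 2-fold by its brightest probe. Cdc6, the ATPase that joins the origin complex to load MCM, read 445 in nondiabetic and 763 in diabetic LSK cells by its brightest probe (0.66). Its further probe was not well above background in nondiabetic cells at 2.50 and read 22.1 in diabetic cells, at least 1.996-fold higher, just inside the limit. The software's error of that probe was 1.46 on the log2 scale, larger than its bound, so the higher value of Cdc6 rests on the brightest probe. Cdt1, which escorts MCM to the origin, read 410.0 and 474 (0.09), and this small difference turned to -0.04 under normexp. Gmnn encodes geminin, the inhibitor that holds Cdt1 back after licensing, and read 310.4 and 579.7 (0.78). Geminin thus differed more than its target, by 0.69 on the log2 scale.

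The MCM helicase, a ring of 6 subunits that unwinds DNA, showed little difference in its brightest members. Mcm6 (probe A_51_P360492) read 11978 in nondiabetic and 13115 in diabetic LSK cells (0.01, error 0.20). Mcm7 (probe A_51_P165704) read 6394 and 7013 (0.02). Mcm4 (probe A_51_P356762) read 4571 and 5286 (0.09). Once the brighter diabetic array was scaled, these 3 subunits were level to within the software's error. Mcm3, at 1267 and 1472, was level as well (0.10). Mcm5 read 566 in nondiabetic and 814 in diabetic cells (0.41), and Mcm2 173 and 302 (0.69), both inside 2-fold. The median of the 6 was 0.10. All 6 ratios were above 0, also under the 4 other ways of scaling the arrays, but 4 of them were smaller than their error. Below 0 were 48.8% of all genes. Mcm2 and Mcm6, the highest and lowest of the 6 ratios, lay 0.67 apart on the log2 scale, a pair picked after the values were seen.

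Of the 8 factors that activate the loaded helicase, 2 were at least 2-fold lower and 0 higher, beside 10.1% and 11.0% of all genes. Mcm10 (probe A_55_P2058962), which is needed for the activated helicases to part and move, read 191 in nondiabetic and 80.2 in diabetic LSK cells, 2.58-fold lower (log2 ratio -1.37, error 0.21). Gins4 (probe A_51_P513085), a GINS subunit also called Sld5, read 295 and 153, 2.09-fold lower (-1.06, error 0.21). Both were dimmer in diabetic cells, but under normexp neither passed 2-fold, with log2 ratios of -0.91 for Mcm10 and -0.78 for Gins4. Gins2 (probe A_52_P381303), the Psf2 subunit, came next to the limit with 575 and 313, 1.99-fold lower (-0.99). Gins3 was lower by less, from 2634 to 2097 (-0.45), and Gins1 was higher, from 197 to 264 (0.31). Of the 4 GINS subunits, 1 was thus at least 2-fold lower (beside 10.1% of all genes) and 3 had ratios below 0 (beside 48.8%). The median of these subunits was -0.72. Gins1 exceeded Gins4 by 1.37 on the log2 scale, the highest and lowest of the 4, picked after the values were seen.

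The other activating factors were close to level. Cdc45, which completes the active helicase with MCM and GINS, read 59.5 in nondiabetic and 68.3 in diabetic cells (0.08). Cdc7, the kinase that phosphorylates MCM, read 208 and 231 on its brightest probe (0.03) and 211 and 213 on the other (-0.10). Its activating subunit Dbf4 read 61.3 and 63.4 (-0.07). These 3 genes differed by less than the software's error. The 8 activating factors had a median of -0.26, with 3 above and 5 below 0 by their brightest probe. The share of all genes below 0 was 48.8%.

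**Figure D2:**
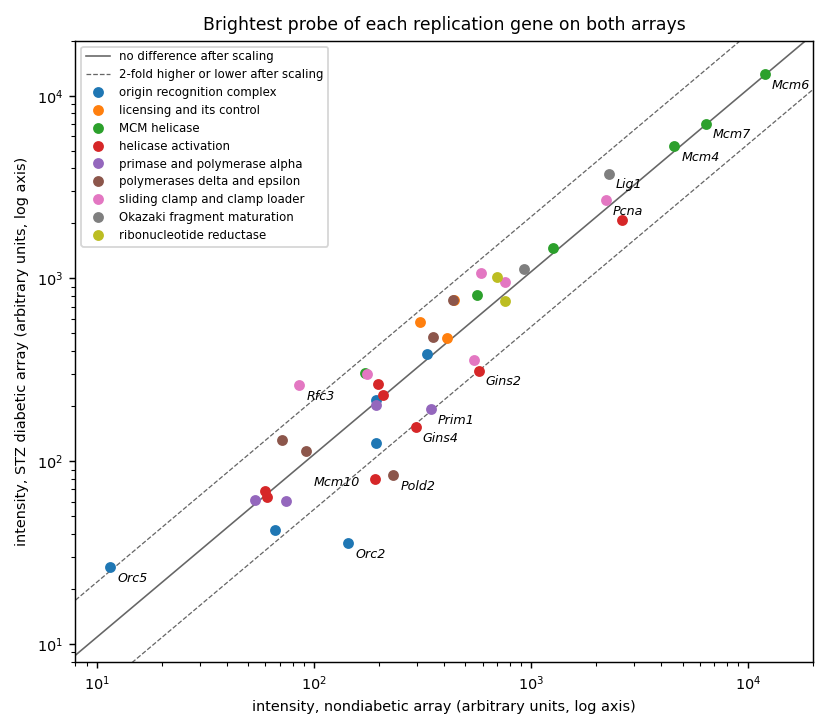
Intensity of the brightest probe of each replication gene on the nondiabetic (x axis) and STZ diabetic (y axis) arrays, in arbitrary units on log axes, coloured by role. The solid line marks equal values after scaling and the dashed lines 2-fold; Mcm6, Mcm7 and Mcm4 lie on the solid line, while Orc2, Pold2, Mcm10 and Gins4 lie below the lower dashed line and Rfc3 above the upper one. Orc5, also above it, was not well above background on the nondiabetic array.

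Primase and polymerase alpha, which lay down the RNA-DNA primer, were level or lower. Prim1 (probe A_51_P168632), the catalytic primase subunit, read 346 in nondiabetic and 192 in diabetic LSK cells, 1.95-fold lower (-0.97, error 0.20) and just inside the limit. Its partner Prim2 read 53.6 and 61.5 (0.08), so that the primase subunits were 1.05 apart on the log2 scale. Pola1, the catalytic polymerase subunit, was level at 194 and 202 (-0.06), and the accessory subunit Pola2 read 74.9 and 60.8 (-0.42). The median of the 4 was -0.24.

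Among the polymerases that extend the strands, the subunits of polymerase delta differed from one another. Pold2 (probe A_51_P342707), the accessory subunit that joins the others in polymerase delta, read 232 in nondiabetic and 83.6 in diabetic LSK cells, 3.01-fold lower (-1.59, error 0.21). Pold1, the catalytic subunit of the same enzyme, was higher, from 440.0 to 761 (0.67). These partners lay 2.27 apart on the log2 scale, a 4.81-fold gap, and 1.69 apart under normexp. They were picked after the values were seen. Pold3, a further subunit, read 355 and 481 (0.32), and Pold4, the small subunit, which is on the list of further replication genes and was picked out after its value was seen, 277 and 168 (-0.84).

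Polymerase epsilon, which copies the leading strand, gave no single answer for its catalytic subunit. The brightest probe of Pole (A_55_P2007273) read 71.5 in nondiabetic and 131 in diabetic cells (0.76, error 0.21). The other probe (A_55_P2455460) read 21.1 and 14.3 (-0.68, error 0.36). The probes pointed in opposite directions and were 1.43 apart, and their mean was 0.04. Pole2, the second subunit, read 92.1 and 114 (0.19), within its error.

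Of the clamp and the 5 subunits of its loader, 1 passed 2-fold, on the higher side, where 11.0% of all genes were. Rfc3 (probe A_51_P479434), a subunit of the RFC loader that opens the clamp, read 85.9 in nondiabetic and 261 in diabetic LSK cells, 2.80-fold higher (log2 ratio 1.48, error 0.21). It was the highest ratio of the set, and stayed past 2-fold under normexp at 1.17. Rfc4 was higher on both probes, from 176 to 300.0 (0.66) and from 47.3 to 89.3 (0.80). Rfc5 was higher, from 588 to 1066 (0.74), and Rfc1, the large subunit, was level with its error at 765 and 951 (0.20). Rfc2 went the other way, from 548 to 358 (-0.73), which put it 2.21 below Rfc3 on the log2 scale. These were the lowest and highest ratios of the loader, a pair picked after the values were seen. The 5 loader subunits had a median of 0.66, with 4 above and 1 below 0, beside 48.8% of all genes below 0. Pcna, the clamp itself and a common proliferation marker, read 2212 and 2684 (0.16), within its error.

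The enzymes that finish the lagging strand and those that supply nucleotides differed less. Lig1, the ligase that seals the fragments, was higher, from 2282 to 3742 (0.60), whereas Fen1, the nuclease that trims them, read 935 and 1131 (0.16). Of the ribonucleotide reductase subunits, Rrm2, whose level limits the enzyme in S phase, was higher, from 698 to 1014 (0.42). Rrm1 was level at 761 and 754 (-0.13).

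A further 41 genes of replication, listed for what they do at the fork or on new chromatin, were read in the same way. Of these, 40 had a ratio or bound. At least 2-fold higher in diabetic cells were 6 (against 11.0% of all genes), and at least 2-fold lower were 2 (against 10.1%). Above 0 were 27 and below 0 were 13, where 48.8% of all genes were below 0. Their median of 0.33 was above the 0.09 of the 42 members, and was 0.18 when all probes of a gene were averaged. Pole3, a histone-fold subunit of polymerase epsilon, was not well above background in nondiabetic cells at 10.6 and read 77.5 in diabetic cells, at least 6.76-fold higher. Ticrr, which helps to fire origins, read 14.1 and 47.8 (1.64). Chaf1a, the large subunit of the CAF-1 chromatin assembly factor, read 36.3 and 118 (1.58). These 3 started from dim probes in nondiabetic cells.

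The other genes past 2-fold on this list were brighter. Dtl, which directs Cdt1 to destruction in S phase, read 125 and 353 (1.38), and Asf1a, a histone chaperone, 62.6 and 161 (1.25). Rnaseh2a, the catalytic subunit of RNase H2, read 1268 and 2804 (1.03). On the lower side were Mtbp, the partner of Ticrr in origin firing, with 1168 and 535 (-1.24), and Donson, a replisome factor, with 158 and 82.9 (-1.05). Ticrr and Mtbp, which act as 1 complex, thus lay on opposite sides. Uhrf1, which recruits the maintenance DNA methyltransferase to new DNA, read 3824 and 5231 (0.33). Mcm9 was dim on both arrays and had no ratio. Under normexp no gene of this list was at least 2-fold higher.

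Genes of mitosis, which cycling cells use after replication, lay on both sides of 0. Of 24 genes, 23 had a ratio or bound, 3 were at least 2-fold higher (against 11.0% of all genes), 4 at least 2-fold lower (against 10.1% of all genes), and the median was -0.14. These counts are small and not far from those shares. The median was -0.02 when all probes of a gene were averaged and -0.20 with no filter on dim probes. Mki67, the usual marker of cycling cells, was level with 3382 in nondiabetic and 3375 in diabetic cells (-0.12), and Birc5, a subunit of the chromosomal passenger complex, read 3551 and 3832 (-0.01). On the higher side, Ccnb1 (cyclin B1) read 118 and 491 (1.94), Cenpe, a kinetochore motor, 73.5 and 285 (1.84), and the kinase gene Aurka 410 and 1119.8 (1.33). On the lower side, the checkpoint kinase gene Ttk read 71.2 and 19.3 (-2.00) and the checkpoint gene Mad2l1 343 and 160.0 (-1.22). The spindle motors were lower too, with 191 and 87.0 for Kif23 (-1.25) and 782 and 408 for Kif11 (-1.05).

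**Figure D3:**
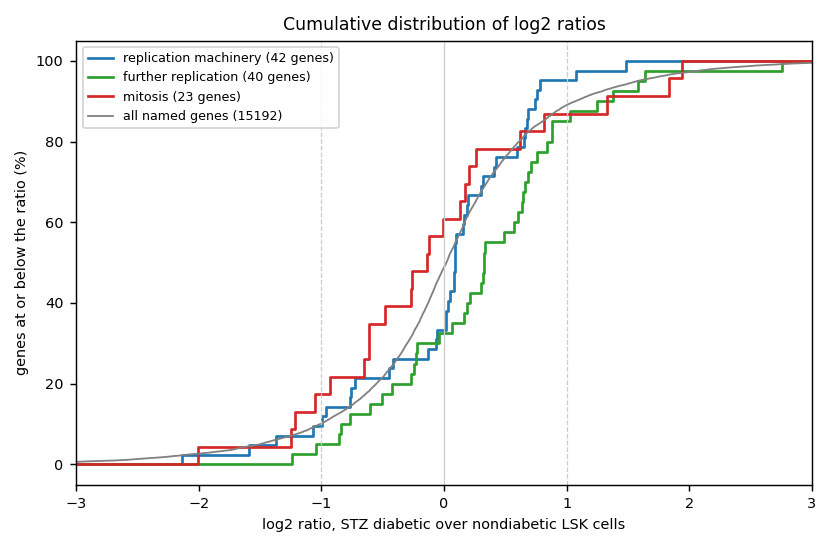
Cumulative share of genes (y axis, percent) at or below a given log2 ratio of diabetic over nondiabetic LSK cells (x axis) for the 42 replication machinery genes, the 40 further replication genes and 23 mitosis genes with a ratio or bound, and all 15192 named genes. Dashed lines mark 2-fold; the medians are 0.09, 0.33, -0.14 and 0.02.

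Markers of other blood and marrow cells were read beside the replication genes. The summed intensities of these lists are given before scaling between the arrays. Of 10 erythroid genes, 8 were read, and all 8 were well above background on both arrays. Their summed intensity was 3806 on the nondiabetic and 8052 on the diabetic array, with Hba-a1 the most intense gene at 1984 and 4967 (1.21), and Slc4a1, the band 3 anion exchanger, at 124 and 529 (1.98). Hbb-bt (0.75), Alas2 (0.35) and Tfrc (0.14) were above 0, while Klf1 (-0.30), Car1 (-0.24) and Epor (-0.20) were below it, and the median of the list was 0.25. The erythroid list was the marker list whose sum differed most, with 2 genes at least 2-fold higher and 0 lower. Of all genes, 11.0% were that much higher and 10.1% that much lower, and the counts of these short marker lists stand beside those shares.

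Granulocyte and monocyte genes summed to 45953 and 45162, and the probe of Itgam alone, at 34686 and 35189, made up most of both sums. Of 13 identified, 11 were well above background on both arrays, 1 on the nondiabetic array only (Ngp) and 1 on neither (Ltf). The median log2 ratio of the list was -0.22. None of its genes was 2-fold higher, and S100a8 was lower, from 52.2 to 20.4 (-1.48). The 9 B cell genes summed to 1001 and 1285, with Vpreb1 the most intense at 535 and 811. Ms4a1 and Ebf1 were dim on both arrays, Cd79a was higher, from 39.3 to 121 (1.51), and Igll1 was at least 3.39-fold higher, from 3.64 to 37.5. Ptprc read 245 and 136 (-0.97) and Cd79b 101.8 and 84.5 (-0.39), both below 0 and inside 2-fold, and the median of the list was 0.48. The 9 T and NK cell genes summed to 4955 and 4235, with Nkg7 the most intense at 3291 and 2582. Cd8a and Ncr1 were dim on both arrays, and Cd3d and Cd3g were each at least 2.74-fold lower in diabetic cells, where they were not well above background. The median of that list was -0.38.

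The 7 megakaryocyte and platelet genes summed to 1403 and 1809, with Gp1bb the most intense at 805 and 950.4. Ppbp and Gp6 were dim on both arrays, and Gp9 was higher, from 14.4 to 44.9 (1.52), with a list median of 0.31. The 8 stroma and endothelium genes summed to 1234 and 1906. Kdr, at 844 and 848, was the most intense on the nondiabetic array and Pecam1 on the diabetic array. Col1a1 and Cdh5 were dim on both arrays, Pecam1 was higher, from 162 to 936 (2.41), and Col1a2 (-1.07) and Emcn (-1.30) were lower, with a list median of -0.45. Within the genes of the gate, Slamf1 was at least 2.59-fold higher, from 5.29 to 28.7, and Mecom lower, from 182 to 86.1 (-1.20). The part of all these cell types in the replication values was not tested.

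The promoters of replication genes are a known target of E2F transcription factors, which switch S-phase genes on. Promoter sequences from RefSeq (build GRCm38.p6) were matched for 34 of the 42 members, and those of Mcm4, Gins1, Gins2, Gins4, Prim2, Pole, Rfc2 and Gmnn were not matched. The 250 bases before the start were searched on both strands for the E2F word in its 4 spellings, TTTCCCGC, TTTCGCGC, TTTGCCGC and TTTGGCGC, and for the NF-Y word CCAAT, which none of them contains. An E2F word was found in 9 of 34 members (26.5%), against 2.16% of the 27025 genes of the table. The 9 were Orc1, Orc3, Cdc6, Mcm5, Mcm6, Mcm7, Gins3, Pola1 and Rfc3, so that 3 of the 5 matched MCM genes held it. The CCAAT word was found in 20 of 34 (58.8%), against 37.5% of all genes, and in 5 of 5 MCM genes. Among the matched genes of the other lists, the E2F word was in 18.2% of further replication genes and 4.76% of mitosis genes, and CCAAT in 48.5% and 81.0%, so that CCAAT was more frequent in the mitosis list than in the machinery. A match describes letters in a window and is neither a bound site nor a cause.

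The stretches around the E2F words of Rfc3, which was the highest of the set, of Cdc6, and of MCM genes that were level or slightly higher are shown 5′ to 3′ on the strand of the gene, with up to 15 bases on each side and the word in capitals. In Mcm5 and Mcm6 the capitals hold 2 words that overlap on opposite strands, and Mcm6 has a further word nearer to its start that is not shown. The capitals begin 10 bases before the start in Rfc3, 138 in Cdc6, 153 in Mcm5, 110 in Mcm6 and 165 in Mcm7. The stretches lie at chr5:151651209-151651233 (minus strand) for Rfc3, chr11:98907998-98908035 (plus) for Cdc6, chr8:75109341-75109382 (plus) for Mcm5, chr1:128359789-128359830 (minus) for Mcm6 and chr5:138172026-138172063 (minus) for Mcm7.
Rfc3: agtgacgtcgcacgcTTTCGCGCtc
Cdc6: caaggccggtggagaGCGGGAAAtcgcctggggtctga
Mcm5: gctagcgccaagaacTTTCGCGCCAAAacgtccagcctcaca
Mcm6: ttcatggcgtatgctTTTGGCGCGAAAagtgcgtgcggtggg
Mcm7: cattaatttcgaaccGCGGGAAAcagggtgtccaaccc

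The log2 ratios of the matched members were also read by the E2F word, and the difference was not tested. The 9 with it had a median of 0.01, with 1 at least 2-fold higher and 0 lower, against 11.0% and 10.1% of all genes. The 25 without it had a median of 0.10, with 1 at least 2-fold higher and 3 lower. Genes that share the word ranged from Orc1 at -0.77 to Rfc3 at 1.48.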

How the data were processed

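For each array the authors deposited scanner output made with Agilent Feature Extraction 11.5.1.1 (per the file headers, with a grid of build mm9), whose processed intensities were background-subtracted within the array by the software and not normalized between arrays. The authors also deposited a table of other processed values of both arrays, which proved to be these intensities times a constant for each array.

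Intensities were taken to log2 and the 75th percentile of the 59305 spots that are not controls was subtracted on each array. A spot that the software called an outlier on 1 array was dropped from both (314 spots). Spots were averaged per probe, and the brightest probe stood for a gene. Probes were named by transcript identifier through a RefSeq table of assembly GRCm38.p6 (28319 probes). A probe not well above background on 1 array gives a bound against the higher of its own value and the lowest intensity well above background there (10.2 nondiabetic, 10.1 diabetic). No value is given where that bound would come to under 1-fold, or where neither array was well above background. The spot-to-spot SD of the log2 ratio, over 237 probes with at least 5 spots, had a median of 0.13 (0.25 for the dimmest of 3 intensity groups, 0.07 for the brightest). No test was possible with 1 array per group. The steps were tested on simulated data, with changes larger than 2-fold planted only in probes well above background on both arrays. That test does not cover ratios near the limit, dim probes or bounds.

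The members and lists were chosen with earlier results of these data known. A further listed erythroid marker is not reported here. All members were to be named, with full values for those past 2-fold, with probes that disagree, brightest or nearest the limit; of the further lists, genes past 2-fold and the brightest gene. The comparison of probes over all genes, the differences between partner subunits, the counts within the software's error and the histone genes were added after values had been seen. Of the 10 alternatives, normexp used the median spot intensity. Python 3.11.15 (numpy 2.4.6, pandas 2.3.3) and R 4.3.3 (limma 3.58.1) were used.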

Additional observations from a re-analysis of the deposited data

How the results depend on the processing

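Of the 10 alternatives, quantile normalization, centring on the median, loess and the authors' table kept the sign of all 42 members and the 6 members past 2-fold. Quantile normalization, loess and the authors' table added Gins2 on the lower side. The median of the members lay between 0.08 and 0.11 over these 4. Member probes past 2-fold rose from 6 to 7 under centring and the authors' table, and to 8 under quantile normalization and loess. Centring added no member, so its added probe was the further probe of a gene, and that of Cdc6 lay nearest the limit. Normexp lowered the counts most, to 1 replication gene at least 2-fold higher and 2 lower, 3 member probes, 597 and 497 of all named genes, and 0 and 1 of the further replication genes. It differs in its background model, its input (the median spot intensity) and an offset of 50, and the cause of the shift was not tested. Mcm10, Gins4 and Orc5 (0.19) no longer passed 2-fold, and Cdt1 and Cdc7 changed sign. With probes kept only if both arrays measured them, which drops bounds, 1 replication gene was 2-fold higher. The mean over a gene's probes and the median probe each gave 1 further replication gene at least 2-fold lower and a median of 0.18 for that list, and turned the signs of Orc4 and Cdc7. No filter on dim probes moved the median of all genes by -0.11 and the floor by -0.16, with 0 signs of members changed. Leaving out a replicate was not possible. No paired analysis was possible because only 1 array was made for either group and nothing was tested. Signal over background limits Orc5 and the further probe of Cdc6, which have bounds only.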

Other observations

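Many histone genes are transcribed as DNA is copied, and the values of histone genes were read after those of the replication genes. The 43 genes found by symbol also include variants made outside S phase or in germ cells, such as H1f0 and H1f8. Of these 43, 40 had a ratio or bound and 38 were well above background on both arrays. The median log2 ratio was 0.04, with 25 above and 15 below 0, beside 48.8% of all genes below 0. Past 2-fold on the higher side in diabetic LSK cells, as were 11.0% of all genes, were H2bc23, from 13.8 to 62.9 (2.07), H3c11, from 57.0 to 132 (1.09), and H4c17, from 37.7 to 84.8 (1.05). On the lower side, which held 10.1% of all genes, H2bc4 went from 177 to 57.4 (-1.74), and H2bc18, not well above background in diabetic cells, was at least 2.84-fold lower. H4c4 read 12745 and 13176 (-0.07) and H2bc1 10618 and 11821 (0.04), so that these bright histone probes were level. Copies of a histone gene are nearly identical, and a probe may read several of them.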
